A study of Rattus norvegicus with 2 samples.

Results

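Glycine receptors and transporters were described in the nucleus of the solitary tract (NTS), the brainstem nucleus that receives visceral sensory fibres and takes part in blood pressure control. The set holds 7 genes: the receptor subunits Glra1, Glra2, Glra3 and Glrb, the transporters Slc6a5 and Slc6a9, and the scaffold gene Gphn. They were taken by gene name, with earlier results of these data known, and all of their probes on the array were used. These 7 genes, with 10 probes, are among 15560 genes and 24530 probes that were well above background on both arrays, and no probe of the set was lost to that filter.

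The series compared the sexes in normotensive Wistar Kyoto (WKY) rats aged 9 weeks, with no treatment named in the labels. For each sex, equal amounts of total RNA (100 ng) from 5 rats were mixed, and 150 ng of the mixture was labelled with Cy3 and read on 1 single-colour Agilent array. There is therefore 1 array per sex, the spread between rats was not measured, and no difference below carries a test or a p-value. The stage of the female cycle was not given in the sources used here. In bulk tissue, fewer cells of a type and less RNA per cell cannot be told apart.

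Glycine is, with GABA, a fast inhibitory transmitter of the brainstem and spinal cord. Its receptor is a ligand-gated chloride channel built from alpha subunits, which carry most of the agonist site, and the beta subunit, which ties the channel to gephyrin under the synapse. Glycinergic terminals refill from the neuronal transporter GlyT2, encoded by Slc6a5, while GlyT1, encoded by Slc6a9 and found largely on astrocytes, clears glycine from the cleft and sets its level around NMDA receptors.

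The arrays read each transcript through 60-base probes, which are shown here because each value below rests on 1 or a few of them. Positions are those of the array file on rat genome build rn4, and sequences are those of the probes, 5′ to 3′, on the strand of the transcript. The Glra1 probe lies at chr10:40923510-40923569 on the minus strand and starts at base 1422 of its transcript. The Glrb probe lies at chr2:172451970-172452029 on the minus strand and starts at base 1268.
Glra1: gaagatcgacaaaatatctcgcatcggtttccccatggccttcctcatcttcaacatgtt
Glrb: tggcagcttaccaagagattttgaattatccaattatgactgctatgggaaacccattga

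Of the transporters and the scaffold, 1 probe each is shown. The Slc6a5 probe that starts at base 2445 lies at chr1:99786137-99786196 on the plus strand, the Slc6a9 probe at base 1836 lies at chr5:138333457-138333516 on the plus strand, and the Gphn probe at base 2255 lies at chr6:101301993-101302052 on the plus strand. The second probes of these genes start at base 6877 for Slc6a5 (chr1:99793114-99793173), base 2575 for Slc6a9 (chr5:138334287-138334346) and base 2419 for Gphn (chr6:101302157-101302216). Whether a probe lies in coding or untranslated sequence was not analysed here.
Slc6a5: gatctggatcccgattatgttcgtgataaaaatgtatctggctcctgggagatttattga
Slc6a9: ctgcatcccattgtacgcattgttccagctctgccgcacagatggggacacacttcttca
Gphn: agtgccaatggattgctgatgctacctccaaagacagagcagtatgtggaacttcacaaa

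The probe of Glra3 is shown beside that of Glra4, another alpha subunit gene, which was on a list of pathway genes and not among the 7. The Glra3 probe lies at chr16:37640157-37640216 on the minus strand and the Glra4 probe at chrX:124410031-124410090 on the minus strand. Capitals mark the bases that are identical in both when they are aligned without gaps, which were 38 of 59 overlapping bases (64.4%). The other pairs of receptor probes shared 36.4% to 46.7% of their overlapping bases in their best ungapped alignment.
Glra3: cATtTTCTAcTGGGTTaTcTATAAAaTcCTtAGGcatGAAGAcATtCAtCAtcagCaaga
Glra4: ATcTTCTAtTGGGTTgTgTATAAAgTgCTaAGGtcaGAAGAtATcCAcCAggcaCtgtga

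The Glra2 probe lies at chrX:49977287-49977346 on the plus strand, starts at base 2236 of its transcript and ends in a simple repeat. Bases 19 to 48 of the probe are shown, with the repeat in capitals; the run of alternating C and A covers bases 29 to 60, which is 32 of the 60 bases.
Glra2: tagtttaatgCACACACACACACACACACA

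Signals are the processed signals of the scanner files, in linear intensity units. Differences are female minus male on the log2 scale after each array's log2 signals were set relative to its own 75th percentile (a signal of 3441 on the male and 3380 on the female array). A technical error was taken from probes printed on several spots, as the SD of the spot difference within 4 classes of brightness: 0.31 over 64-fold below the 75th percentile, 0.15 at 16- to 64-fold below, 0.089 at 4- to 16-fold below, and 0.069 above that. Each probe of the 7 genes had 1 spot. This SD covers spot noise only and holds nothing of the difference between rats, labellings or arrays.

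All 7 genes gave close to equal signals in the male and the female pool. Glra2 is counted among them, although 32 of the 60 bases of its only probe are a repeat. Whether its signal comes from Glra2 transcripts was not tested. The genes ranged from -0.11 for Slc6a9 to 0.27 for Slc6a5, with a median of 0.076, against a median of -0.014 and quartiles of -0.11 and 0.079 over all 15560 genes. Higher values in the female pool were found for 6 of the 7 genes, against 45.7% of all genes. Of these 6, Glra2, Glra3 and Glrb differed by less than 1 spot SD (0.59, 0.50 and 0.054 spot SDs). The count was 7 of 7 with spike-in scaling, which moves all genes up by 0.67, and 5 of 7 with another background correction. None of the 7 was 1.5-fold or more apart, a size that 0.893% of all genes reached with the female pool higher and 1.57% with the male pool higher. None was 2-fold apart either, against 0.109% and 0.424% of all genes in the same order. With spike-in scaling 6 of the 7 passed 1.5-fold in the female direction, but so did 10939 of all genes.

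By probe, 8 of the 10 were higher in the female pool, against 46.5% of all probes. Of the 10 probes, 6 were more than 1 spot SD apart (49.9% of all probes) and 2 were more than 2 spot SDs apart (21.2% of all probes). Both of the latter read transporters: the Slc6a5 probe at base 6877 and the Slc6a9 probe at base 1836.

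**Figure D1:**
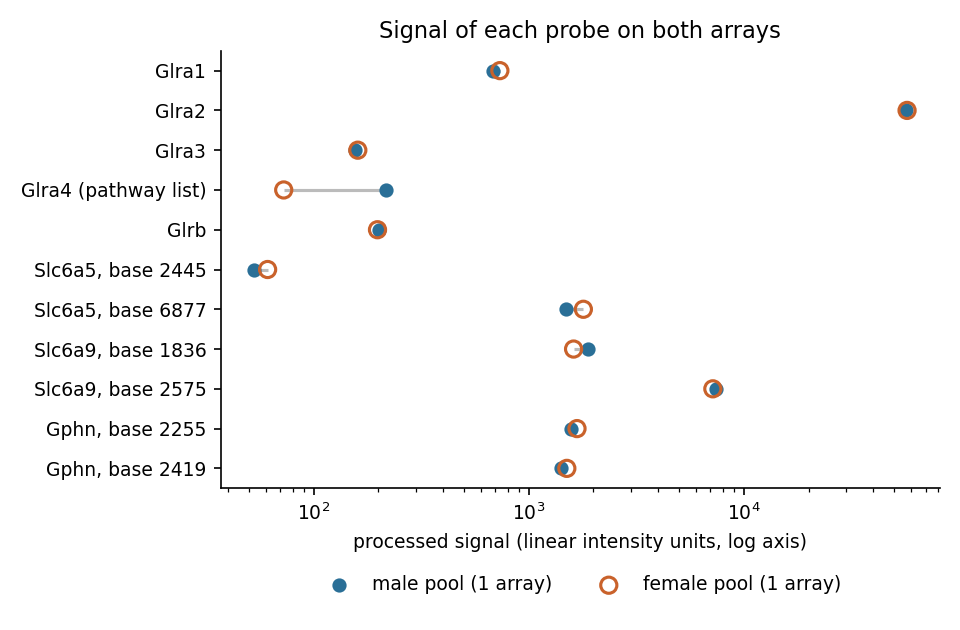
Processed signal (linear intensity units, log axis) of each probe of the 7 glycine genes and of Glra4 on the male array (filled points) and the female array (open circles), 1 spot per probe and array; grey lines join both values. The points of the 7 genes nearly coincide, while Glra4 reads 217 in the male and 72.5 in the female pool; levels of different probes are not comparable.

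Among the receptor subunits, Glra1 encodes the alpha subunit that dominates adult spinal and brainstem receptors. Its signal was 680 in the male and 734 in the female pool, a difference of 0.14 (1.10-fold). The female value was the higher by 1.52 spot SDs, and 40.2% of the 5202 probes in the same brightness class differed by at least this much.

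Glra2 encodes an alpha subunit known mainly from the developing brain. Its signal was 56849 in the male and 57443 in the female pool, a difference of 0.041, or 0.59 spot SDs. Both pools thus gave the same value within spot noise, and 69.1% of 11297 probes in its class were at least this far apart. This probe was brighter than 97.4% of rat probes, 4.05 and 4.09 log2 units above the 75th percentile in the male and female pool.

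The level of the Glra2 probe was therefore set beside other probes that hold the same repeat, a search chosen after its sequence was seen. A run of alternating C and A of at least 20 bases was present in 14 of 30344 rat probes (0.0461%). These 14 probes, Glra2 included, had a median level of 3.23 and ranged from 0.0080 to 5.23 log2 units relative to the 75th percentile, whereas the median of all rat probes was -3.49. On both arrays 13 of the 14 (92.9%) lay above the 75th percentile, compared with 20.6% of all rat probes, and 4 of them were brighter than the Glra2 probe. The 8 probes with runs of 10 to 19 bases, the longest of 16, all had a mean level below the 75th percentile. The complementary run, alternating T and G over at least 20 bases, was present in 6 probes, and all 6 were above the 75th percentile on both arrays. For T and G runs of at least 16 bases this held for 9 of 11 probes, and of at least 10 bases for 13 of 26. Some probes with shorter T and G runs were thus also above it, unlike those with shorter C and A runs. Whether the Glra2 signal comes from Glra2 transcripts or from other labelled RNA that holds the repeat was not tested, so its level is given here without reading it as the abundance of Glra2. The repeat probes differed between the pools by a median of 0.062, and all rat probes by -0.015.

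**Figure D2:**
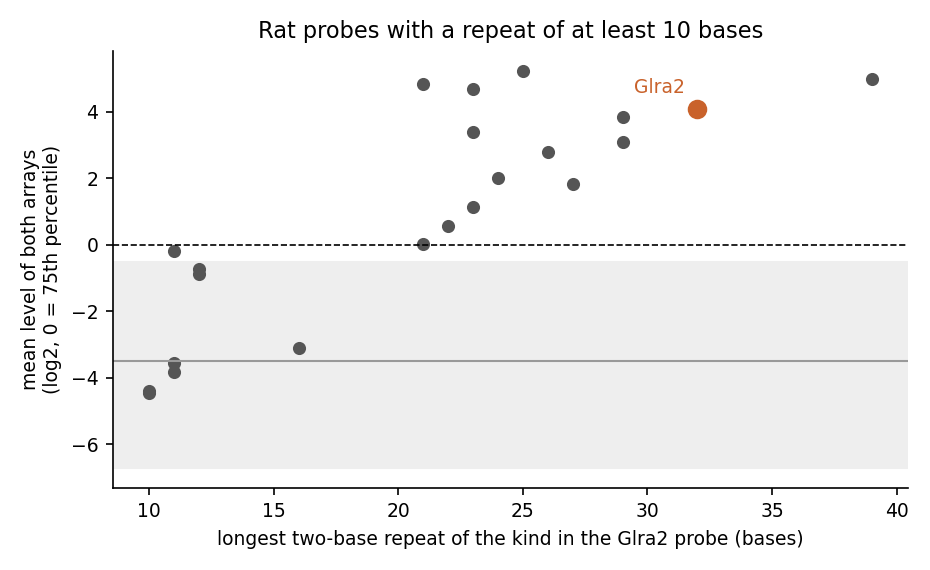
Mean level of both arrays (log2, 0 at each array's 75th percentile, dashed line) of the 22 rat probes with a run of alternating C and A of at least 10 bases, against the length of the run in bases; the grey band spans the quartiles of all rat probes and the grey line is their median (-3.49). All 14 probes with runs of 20 bases or more lie at or above the dashed line, Glra2 among them, and the 8 with shorter runs lie below it.

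Glra3 encodes an alpha subunit known from pain circuits of the spinal cord and from respiratory neurons. Its signal was 155 in the male and 160 in the female pool, a difference of 0.076 (0.50 spot SDs), which 71.2% of the 4789 probes of its class reached or passed. Glrb encodes the beta subunit that anchors the receptor. Its signal was 200.4 in the male and 198.0 in the female pool, a difference of 0.0082 after scaling and of -0.029 with normexp background correction. At 0.054 spot SDs this was the smallest of the 10 probe differences, and 97.2% of the probes of its class were at least this far apart. No receptor probe of the set was 2 spot SDs apart.

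Glra4, a further alpha subunit gene, stood apart from the other subunits. Its signal was 217 in the male and 72.5 in the female pool, so the male value was the higher by 2.93-fold (a difference of -1.55). This was 10.3 times its spot SD, and 18 of the 4789 probes in its brightness class (0.376%) were as far apart. The male pool stayed higher in each of the 11 alternatives in which the gene was counted, with differences from -1.55 to -0.88 (spike-in scaling). With normexp background correction the difference was -1.11, so its size depended on the background correction. It was not counted when probes below the median brightness were left out. The value rests on 1 dim spot per array, which carried no outlier flag. It was outside the 4 bands of array rows, of 20, in which many dim spots had a male signal at least 2-fold above the female one, but in a band next to 1 of them. In its own band 2.81% of dim spots were of this kind, above 13 of the 20 bands and the median band (1.65%), and in the neighbouring left-out band 9.01% were. Whether its position plays a part in the value was not tested. Before background subtraction, the mean and median pixel intensity were 310.5 and 311 on the male spot and 136.3 and 136 on the female spot. The Glra3 probe, which shares the most sequence with it, differed by only 0.076 in the other direction.

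**Figure D3:**
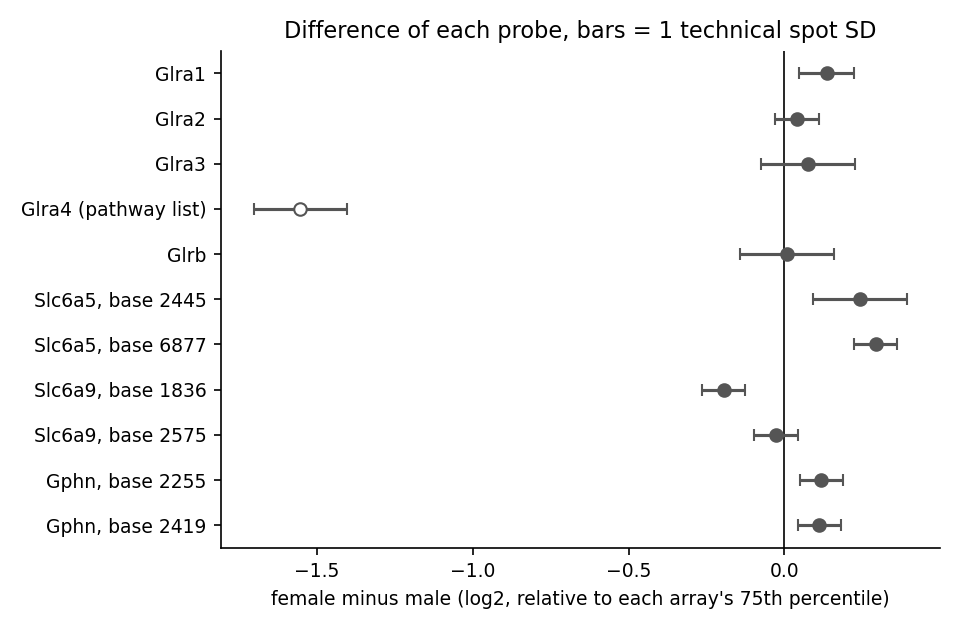
Female minus male difference (log2, after scaling to each array's 75th percentile) of each probe of the 7 glycine genes and of Glra4 (white point); bars are 1 technical spot SD of the probe's brightness class, with 1 array per sex. The Slc6a5 probe at base 6877 (0.29) and the Slc6a9 probe at base 1836 (-0.19) lie more than 2 SDs from 0 on opposite sides, and Glra4 lies at -1.55; with spike-in scaling both Slc6a9 probes are above 0.

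Of the transporters, Slc6a5 marks the neurons that release glycine. Its probe at base 2445 read 52.5 in the male and 61.1 in the female pool, a difference of 0.24 at 1.62 spot SDs. Its probe at base 6877 read 1491 and 1795 in the same order, a difference of 0.29 at 4.24 spot SDs, which 4.79% of 11297 probes in its class reached. Both probes were thus higher in the female pool. Their differences were 0.050 apart, a smaller gap than the median of 0.13 over the 2555 genes with 2 probes. The probe at base 2445 was dim, with mean pixel intensities before background subtraction of 95.7 in the male and 99.2 in the female pool. Those of the probe at base 6877 were 1847 and 2214, so the direction rests mainly on that probe. The gene's difference was 0.27 (1.20-fold) and ran from 0.17 (normexp) to 0.30 over the alternatives other than spike-in scaling.

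Slc6a9 was the only one of the 7 genes with a higher value in the male pool, a direction that turned with spike-in scaling (0.56). Its probe at base 1836 read 1883 in the male and 1616 in the female pool, a difference of -0.19 at 2.81 spot SDs, which 12.1% of probes in its class reached. Its probe at base 2575 read 7444 and 7179, a difference of -0.026 at 0.38 spot SDs. Only the first probe was thus apart by more than its spot noise, and the gap of 0.17 between the probes was above the median gap. The gene's difference was -0.11 (1.08-fold), and -0.026 when the brightest probe stood for the gene.

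The difference between both transporters does not depend on the scaling factor of the arrays. Slc6a5 relative to Slc6a9 was 0.38 log2 units (1.30-fold) higher in the female pool, with a range of 0.28 to 0.40 over the 12 alternatives. Beside these values, 10 of the 11 listed neuron markers passed the background filter, 5 higher in each pool (median -0.0037, range -0.16 to 0.24). Their summed level, in multiples of the 75th percentile, was 160 in the male and 161 in the female pool, of which the probe of Uchl1 alone gave 101 and 102; the other 9 summed to 58.6 and 58.5. All 10 listed astrocyte markers passed the filter, and 7 were higher in the male pool (median -0.070, range -0.32 to 0.21), with summed levels of 90.7 and 86.2, of which Aldoc gave 55.1 and 51.6. These sums add probes that bind differently and weigh the brightest most. Their part in the transporter values was not tested.

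Gphn encodes gephyrin, which holds glycine and GABA-A receptors at the synapse and, in every tissue, completes the molybdenum cofactor. Its probe at base 2255 read 1571 in the male and 1677 in the female pool, a difference of 0.12 at 1.73 spot SDs. Its probe at base 2419 read 1416 and 1503, a difference of 0.11 at 1.63 spot SDs. Both probes were slightly higher in the female pool and differed from each other by only 0.0068. Differences of this size or more were found for 28.8% and 31.2% of probes in their class. The probe at base 2255 lay in 1 of the 4 bands with many dim male-bright spots, and the gene's difference without those bands was 0.11.

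**Figure D4:**
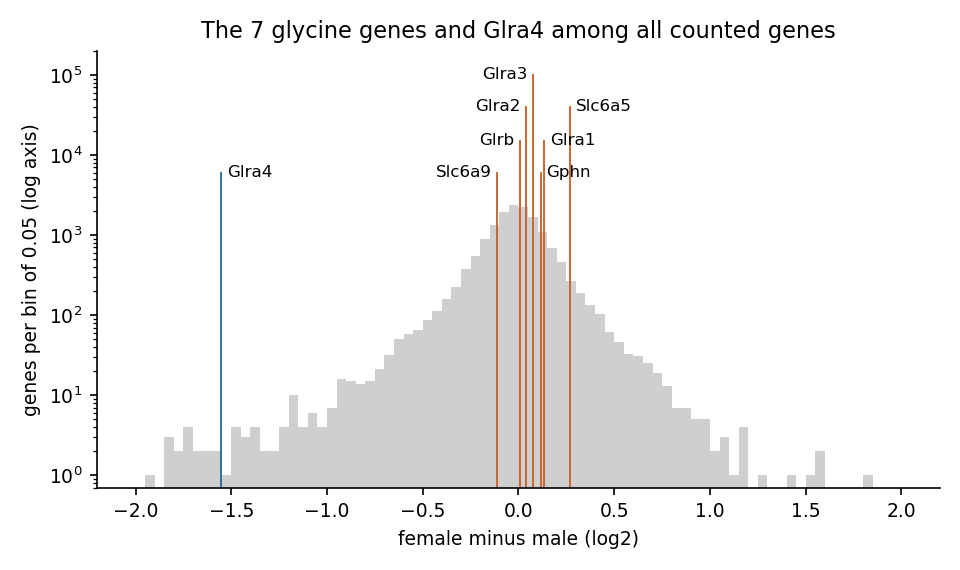
Histogram of the female minus male difference (log2) of the counted genes in bins of 0.05 on a log axis, with vertical lines at the 7 glycine genes and Glra4; line heights serve only to place the names, and 7 genes beyond 2 log2 units are not drawn. The 7 genes lie between -0.11 and 0.27, and Glra4 lies at -1.55; with spike-in scaling all genes move up by 0.67.

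The wider pathway was described with 5 gene lists, of which 42 of 43 genes were measured. Higher values in the female pool were found for 27 and in the male pool for 15, with a median of 0.028 against -0.014 over all genes. Of all genes 45.7% were higher in the female pool, a share that also stands beside the counts of each list below. It was 56.2% with median scaling, under which the list counts were not repeated. Glra4 was the only 1 of the 42 that was 1.5-fold or 2-fold apart, against the shares of all genes given above (1.57% and 0.424% with the male pool higher).

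Among 10 other genes of the glycinergic synapse, 7 were higher in the female and 3 in the male pool, with a median of 0.040. Slc32a1 encodes the vesicular transporter that loads glycine and GABA. It read 40691 in the male and 49102 in the female pool, a difference of 0.30. The female value was thus the higher, as it was for Slc6a5, and the difference lay between 0.30 and 0.33 over the alternatives other than spike-in scaling. Nlgn2, the adhesion molecule of inhibitory synapses, differed by 0.091, with probes at 0.019 and 0.16, and by 0.16 with the brightest probe or without the bands named above. Gad1 and Gad2, which make GABA, differed by -0.058 and 0.029. The probes of Gad1 disagreed in direction (-0.25 and 0.14).

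Of 11 genes of glycine synthesis and breakdown, 8 were higher in the female and 3 in the male pool, with a median of 0.035. Gldc, the decarboxylase of the glycine cleavage system, read 500.5 in the male and 605.5 in the female pool, a difference of 0.30. Its only probe lay in a band with many dim male-bright spots. Gcat, which acts in the breakdown of threonine to glycine in mitochondria, differed by 0.18, and Psph, which makes serine, by 0.14. These 3 largest values of the list were thus on the female side. Gcsh followed closely on the male side at -0.13, with probes at -0.16 and -0.11, 1 of them in those bands.

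Of 8 other carriers of glycine, 7 were measured, 4 higher in the female and 3 in the male pool, with a median of 0.0014. Slc6a14 was not well above background on both arrays. Slc38a2, a sodium-coupled neutral amino acid carrier, read 5538 in the male and 6216 in the female pool, a difference of 0.19. Slc38a5, which exchanges glutamine and glycine with protons, read 1902 and 1639, a difference of -0.19. Slc25a38, the mitochondrial glycine carrier, differed by -0.098. These carriers thus lay on both sides of 0.

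Of 8 genes that set the chloride gradient on which glycine receptors act, 4 were higher in each pool, with a median of -0.020. Clcn2, a chloride channel, differed by -0.32. Its probes gave -0.46 and -0.18, so its value was -0.18 with the brighter probe alone and -0.46 without the bands of dim male-bright spots. Oxsr1, a kinase that acts on chloride cotransporters, had probes at -0.50 and 0.11 and a difference of -0.20, which was 0.11 with the brightest probe. Slc12a7, a potassium chloride cotransporter, differed by -0.16, with its probes at -0.17 and -0.15. Slc12a5, which encodes the neuronal chloride extruder KCC2, differed by -0.084, but its probes gave -0.28 and 0.11. Of these genes only Slc12a7 and Clcn2 thus had both probes on the same side of 0 among those named.

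The 6 genes of molybdenum cofactor synthesis and its enzymes were 4 higher in the female and 2 in the male pool, with a median of 0.029. Xdh, an enzyme that uses the cofactor, differed by 0.11. Mocs1 and Mocs2, which act upstream of gephyrin in its synthesis, differed by 0.10 and -0.11, and Mocs2 by -0.0031 with normexp background correction.

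**Figure D5:**
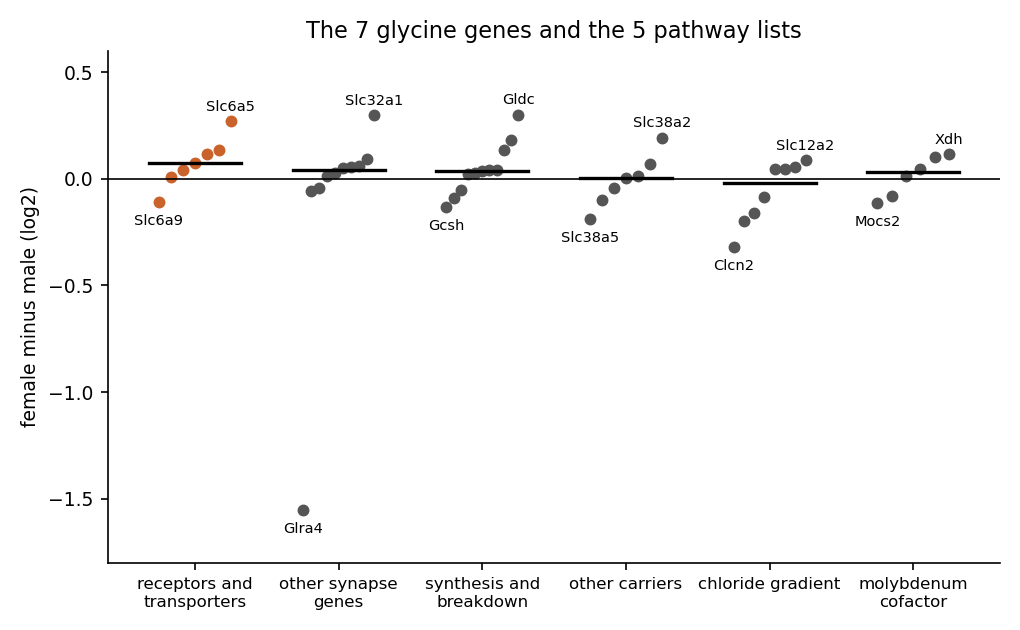
Female minus male difference (log2) of the 7 glycine genes and of the measured genes of the 5 pathway lists; points are genes in order of their value, bars are list medians, and the lowest and highest gene of each list are named. List medians lie between -0.020 and 0.076, and Glra4 at -1.55 is the only gene beyond 1.5-fold; with spike-in scaling the medians lie between 0.65 and 0.75.

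The tissue label was set against marker lists. Of 11 listed dorsal hindbrain and NTS markers, 8 passed the background filter and no probe was matched to the other 3. The filter was passed by 24530 of 30344 rat probes. It was also passed by 7 of 7 motor nuclei, 8 of 8 choroid plexus and 9 of 10 cerebellum markers. Passing it thus does not tell the NTS from neighbouring tissue. Of the 8 dorsal hindbrain and NTS markers, 5 were higher in the female pool (median 0.018, range -0.070 to 0.62). Prlh, which encodes prolactin-releasing peptide of NTS neurons, was the highest at 1.54-fold (0.62), with a probe in 1 of the 4 bands, while the noradrenergic genes Th and Dbh differed by 0.026 and -0.053. Among glial and vessel lists, medians were 0.19 for oligodendrocytes (6 of 8 higher in the female pool), -0.12 for microglia (5 of 8 higher in the male pool) and 0.056 for endothelium (6 of 8 higher in the female pool). Markers of neighbouring tissue also differed. All 5 red cell, 8 meningeal and 8 choroid plexus markers were higher in the male pool, with medians of -0.51, -0.37 and -0.22, a direction that all 3 medians lost with spike-in scaling (0.16, 0.30 and 0.45). Motor nuclei had a median of -0.055 (5 of 7 higher in the male pool) and cerebellum 0.020 (5 of 9 higher in the female pool). The part of these tissues in the values of the glycine genes was not tested.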

How the data were processed

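Per the file headers, the deposited intensity values are Agilent single-colour processed signals, background-subtracted and detrended within each array. The headers name Feature Extraction 10.7.3.1 and build rn4, whereas the submitters' processing notes give version 9.1. The deposited value table held the same signals times 1 factor per array (column medians 28.0 and 27.3, linear, uncentred). Control spots and 430 spots flagged on either array were left out. Well above background were 85.5% of male and 87.9% of female rat spots, and none was saturated. With 1 array per sex, the number of arrays limits the precision. Log2 signals were set relative to each array's 75th percentile, spots of a probe were averaged, and a gene took the median of its probes well above background on both arrays. Symbols were updated by accession through a RefSeq table of GRCr8 where matched (18758 probes). The genes and lists were chosen with earlier results of these data known. Named were all 7 genes, and of each pathway list the 3 largest differences and any at 1.5-fold or more. Gad1, Gad2, Gcsh and Slc12a5, and the marker genes Th, Dbh, Prlh, Uchl1 and Aldoc, were added after their values were seen. With 2 arrays no measure of likeness between genes exists. Alternatives changed the scaling (median, quantile, spike-in, loess with span 0.3), the background (normexp, offset 50), the value table, 3 filters, flagged spots, the brightest probe, and the 4 of 20 bands of array rows (20.6% of rat spots) rich in dim male-bright spots. The scripts were tested on simulated data with planted differences larger than any of the 7 genes had. That test does not show how well differences as small as theirs are recovered. Python 3.11.15, pandas 2.3.3, statsmodels 0.14.6, R 4.3.3 and limma 3.58.1 were used.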

Additional observations from a re-analysis of the deposited data

How the results depend on the processing

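No paired analysis was possible because each sex has 1 array. For the 7 glycine genes and the lists, 12 alternatives were run. Spike-in scaling moved nearly every value up by about 0.67 and put 98.9% of all genes higher in the female pool: Glra1 was 0.81, Glra2 0.71, Glra3 0.75, Glrb 0.68, Slc6a5 0.94, Slc6a9 0.56 and Gphn 0.79, with a median of 0.75 and 6 genes at 1.5-fold or more. The list medians were then 0.71 for the synapse, 0.71 for synthesis and breakdown, 0.67 for carriers, 0.65 for the chloride gradient, 0.70 for the molybdenum cofactor, 0.67 for neurons, 0.60 for astrocytes, 0.86 for oligodendrocytes, 0.55 for microglia, 0.73 for endothelium, 0.62 for motor nuclei, 0.69 for the dorsal hindbrain, 0.69 for cerebellum, 0.16 for red cells, 0.30 for meninges and 0.45 for choroid plexus. With median scaling 56.2% of all genes were higher in the female pool, and still 6 of the 7. With normexp, Glrb was -0.029 and meninges -0.275. With the brightest probe, Slc6a9 was -0.026, the chloride gradient 0.077 and microglia -0.054. Among probes brighter than the median probe, which dropped Glra3 and Glrb, the chloride gradient was 0.076 and cerebellum -0.13. Without the bands, oligodendrocytes were 0.264. Genes 2-fold apart numbered 17 with the female and 66 with the male pool higher; they were 581 and 17 with spike-in scaling, 5 and 18 with normexp, 212 and 158 when 1 array above background sufficed, 436 and 275 with no filter, 4 and 12 among brighter probes, and 15 and 39 without the bands. Genes 1.5-fold apart (139 and 245) numbered 10939 and 37 with spike-in scaling, 31 and 88 with normexp, 501 and 345 when 1 array sufficed, 984 and 578 with no filter, 25 and 63 among brighter probes, and 121 and 155 without the bands. The causes were not tested. Other settings kept the 7 genes within 1 spot SD of the values given.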
